A study of Mus musculus with 80 samples.

Results

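Transcripts of 9 genes of insulin signalling were measured in the left ventricle of C57Bl/6J mice. The genes are the receptors Insr and Igf1r, the receptor substrates Irs1 and Irs2, the regulatory kinase subunit Pik3r1, the kinases Akt1 and Akt2, and the transcription factors Foxo1 and Foxo3. They were chosen by name, and all 9 were found among the 56941 genes of the count table and passed the filter on low counts, as 15879 genes did. The 80 libraries formed 8 groups, 10 for each pairing of a sex with 1 of 4 conditions. Sham libraries had the Normal diet, no irradiation and a dose of 0 cGy (centigray, the absorbed dose of radiation). Western libraries had the Western diet, also with a sham field and 0 cGy. Mixed libraries had the Normal diet and a field named only "Mix" at 50 cGy, and gamma libraries had the Normal diet and 100 cGy of gamma radiation. The labels name no genotype beyond the strain, and neither age, the interval since irradiation nor the hour of collection is in them. Titles carry a letter for sex and a number. Replicates 1 to 5 of each group carry numbers 1 to 20 (called lower-numbered libraries here) and replicates 6 to 10 carry numbers 21 to 40 (higher-numbered libraries), and the labels do not say what separates them. Nor do they say that libraries came from separate animals, so a p-value here reflects the spread from library to library, which may be technical.

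Insulin and insulin-like growth factor 1 bind the receptor tyrosine kinases encoded by Insr and Igf1r. The active receptors phosphorylate the IRS adaptor proteins, which recruit phosphoinositide 3-kinase (PI3K) through its p85 subunit, the product of Pik3r1. PI3K makes the lipid that brings AKT kinases to the membrane, and AKT phosphorylates FOXO factors and so keeps them out of the nucleus. In heart muscle this pathway is known for its control of glucose uptake, cell size and protein breakdown. RNA levels do not report phosphorylation, so the activity of the pathway was not measured here.

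The 250 bases before the start of Pik3r1 and Foxo3, the members nearest to the threshold in the treatment comparisons, are shown on the strand of the gene and 5′ to 3′. They come from the GRCm39 genome, ahead of the canonical transcript start of the GENCODE vM39 annotation, on the minus strand in each case: Pik3r1 at chr13:101904726-101904975 and Foxo3 at chr10:42152760-42153009. The Foxo3 stretch lies inside the annotated bounds of its gene, as do those searched for Akt1 and Akt2. Other annotated transcripts of these genes therefore start further upstream. Capitals mark the GC box, GGGCGG on either strand, a core site of the SP family of factors.
Pik3r1: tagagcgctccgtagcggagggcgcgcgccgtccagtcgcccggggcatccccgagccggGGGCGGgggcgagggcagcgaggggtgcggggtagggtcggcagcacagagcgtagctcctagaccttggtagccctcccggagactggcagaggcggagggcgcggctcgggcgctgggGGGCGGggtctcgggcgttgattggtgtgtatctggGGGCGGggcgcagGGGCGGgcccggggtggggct
Foxo3: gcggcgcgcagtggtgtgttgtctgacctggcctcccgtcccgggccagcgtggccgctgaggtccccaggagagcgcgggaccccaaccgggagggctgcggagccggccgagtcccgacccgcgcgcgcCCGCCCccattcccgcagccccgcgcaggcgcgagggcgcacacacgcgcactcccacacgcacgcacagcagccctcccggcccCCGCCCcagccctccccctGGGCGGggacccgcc
The Pik3r1 stretch, at 76.4% G and C, held 4 copies, beginning 190, 70, 34 and 21 bases before the start. The Foxo3 stretch, at 79.6%, held 3, beginning 119, 34 and 15 bases before it. The motif was in 36.3% of 21770 promoters of the same length, and a match is a description of letters, not of a bound site. Of the other members searched, Igf1r held 5 copies, Irs2 4, Irs1 2, Foxo1 2, Akt2 1 and Akt1 none. The FOXO core GTAAACA was searched on both strands and is present in 2.72% of promoters. It was found in 1 of these 8 genes, Akt1, 231 bases before its canonical start. The E-box CACGTG (6.26% of promoters), the cyclic AMP response element TGACGTCA (1.69%) and the D-box TTATGTAA (0.836%) were in none of these 8 genes.

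Total counts per library ran from 13484776 to 22143504, and the members' counts from 93 for Irs2 to 5095 for Akt1 in single libraries. Ventricular muscle markers were high in every library, with a mean of 25477 CPM (counts relative to the library's scaled total) for Myh6, and none of the 6 was at 0 in any library. The sum of 5 atrial markers stayed at or below 27.4 CPM in every female library, while 20 male libraries (sham 6, Western 5, mixed 3, gamma 6) held over 10 CPM of the atrial light chain Myl7. The sums of skeletal muscle, liver and adipocyte markers reached at most 4.07, 12.4 and 8.64 CPM. The library labelled female gamma replicate 7 lacked Xist, with 0.129 CPM against 102 CPM or more in the other female libraries. Like them it held 0 CPM of Ddx3y, which goes with its label. Leaving it out moved no member by more than 0.05 on the log2 scale in any of 17 comparisons and changed 2 calls, which are given below. No pair of libraries of a group was as alike as sampling noise alone would make copies, the closest being female gamma replicates 8 and 9 at a chi-square per degree of freedom of 1.62.

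The members fell into 3 tiers of abundance. On a scale of CPM per kilobase of the canonical transcript, over the 20 sham libraries (mean ± SD, n = 20), the AKT kinase genes stood highest. Akt1, the broadly expressed AKT kinase, was at 67.8 ± 10.2 CPM per kilobase. Akt2, the form tied to glucose uptake, was at 44.3 ± 4.74. Akt1 exceeded Akt2 in 20 of 20 libraries, although their ranges overlapped. The middle tier held Pik3r1 at 14.5 ± 3.70 CPM per kilobase, Foxo3 at 12.9 ± 3.33 and Insr at 12.3 ± 2.51. Pik3r1 lay below Akt2 with no overlap, and its neighbours were not cleanly ordered, since Pik3r1 exceeded Foxo3 in 17 of 20 libraries and Foxo3 exceeded Insr in 12.

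The lowest tier held Foxo1 at 2.98 ± 0.340 CPM per kilobase, Irs1 at 2.71 ± 0.406, Irs2 at 2.08 ± 1.19 and Igf1r at 2.01 ± 0.383. Insr, in the tier above, exceeded Foxo1 with no overlap. Inside this tier the order was loose, with Foxo1 above Irs1 in 13 of 20 libraries, Irs1 above Irs2 in 17 and Irs2 above Igf1r in 6. The order of the means was the same with the union of all exons as the length. Irs2 was the member of largest spread, with a coefficient of variation of 57.1% among sham libraries, against 10.7% (Akt2) to 25.7% (Foxo3) for the others. Akt1 overlaps Siva1 on the opposite strand over 3340 bases and Zbtb42 over 163 bases, at 15.2 and 7.44 CPM, and reads of these genes cannot be told apart if strand was not used in counting.

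On GRCm39, with GENCODE vM39 gene bounds, Insr lies on the minus strand of chromosome 8 (3172061 to 3329647), as does Irs2 (11034681 to 11059499). Igf1r (67601518 to 67883416) and Akt2 (27284378 to 27340262) lie on the plus strand of chromosome 7. Irs1 is on chromosome 1 (82210822 to 82269338, minus), Pik3r1 on 13 (101817071 to 101904725, minus) and Akt1 on 12 (112620248 to 112645654, minus). Foxo1 is on chromosome 3 (52175757 to 52260642, plus) and Foxo3 on 10 (42057837 to 42154007, minus). The table counts whole genes, so no value here separates their isoforms.

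The first question was whether diet or radiation came with a difference in these transcripts. By edgeR's quasi-likelihood test with Benjamini-Hochberg adjustment over all 15879 genes, none of the 9 was called (adjusted p under 0.05) against sham in either sex. The background was low as well. In males the Western diet called 0.397% of all genes, the mixed field 0.0693% and gamma radiation 0.176%. In females the Western diet called 0.0189%, and the mixed field and gamma radiation 0%. At an unadjusted p under 0.05 the members numbered 3, 3 and 1 in males (Western, mixed, gamma) and 2, 1 and 3 in females, where 12.8, 8.17 and 5.43% of all genes passed in males and 7.39, 6.47 and 10.3% in females. DESeq2 called 1 member, Foxo3, in Western males and in mixed field males, and none in the other 4. Over the members the median log2 difference was 0.09, 0.12 and 0.10 in males and -0.05, -0.03 and 0.16 in females, beside medians over all genes from -0.01 to 0.01. In whole tissue, fewer cells of a type and less RNA per cell cannot be told apart, for these and all later differences.

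**Figure D1:**
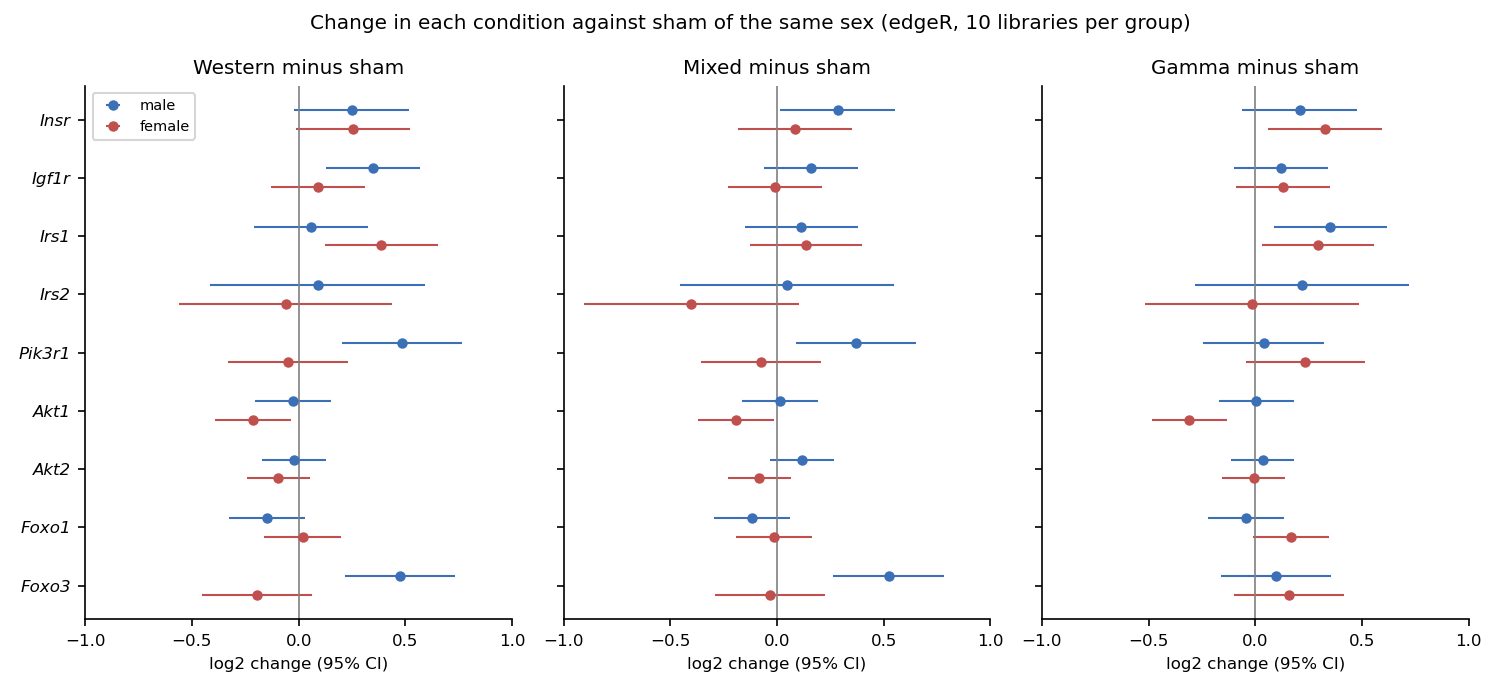
Log2 differences of the 9 genes against sham of the same sex, with 95% confidence intervals, for the Western diet, the mixed field and gamma radiation in males and females (10 libraries per group). The largest values are those of Foxo3 in mixed field males (0.52) and of Foxo3 and Pik3r1 in Western males (0.48 each), and no adjusted p is under 0.05.

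Among the receptors, Insr ran from 92.0 to 164 CPM in male sham libraries, with a median of 113. In Western males it ran from 111 to 176 with a median of 135, in mixed field males from 72.2 to 209 with a median of 140.5, and in gamma males from 98.3 to 175 with a median of 134. The groups overlapped widely, although 9 of 10 Western and 9 of 10 mixed field libraries lay above the sham median. The log2 difference was 0.25 ± 0.13 (SE) in Western males (edgeR adjusted p = 0.427) and 0.28 ± 0.13 in mixed field males (adjusted p = 0.583). All lower-numbered male sham and Western libraries, and sham replicate 6, were over 10 CPM of Myl7. Leaving such libraries out therefore compares higher-numbered libraries in those groups, and atrial markers and title numbers cannot be told apart there. The male Western value of Insr was 0.51 within the lower-numbered libraries and -0.03 within the higher-numbered ones. In females the Insr medians were 112 CPM in sham, 118 in Western, 124 in mixed field and 125 in gamma libraries. Gamma females, from 109.8 to 190.0 CPM against 75.6 to 154 in sham, differed by 0.33 ± 0.14 (adjusted p = 0.413). Of the gamma libraries 8 of 10 lay above the sham median, and the value was 0.35 without the library labelled female gamma replicate 7. Mean Insr was 166 CPM in gamma against 120 in sham females within the lower numbers, and 118 against 106 within the higher ones.

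Igf1r, the receptor for insulin-like growth factor 1, had 18.3 to 34.3 CPM in male sham libraries (median 23.6) and 23.4 to 39.2 in Western males (median 29.9). The 2 ranges overlapped, with 4 Western libraries above the highest sham library and 9 of 10 above the sham median. The difference was 0.35 ± 0.11 (95% interval 0.13 to 0.57), and its adjusted p of 0.132 by edgeR missed the threshold. It was 0.57 within the lower numbers and 0.13 within the higher ones. In females no Igf1r value reached an unadjusted p under 0.05, and the group medians lay between 24.9 and 26.96 CPM.

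Irs1, the adaptor through which the insulin receptor engages PI3K, had 21.9 to 31.4 CPM in female sham libraries (median 25.8) and 25.7 to 48.4 in Western females (median 34.6). Of the Western libraries 6 lay above the highest sham library, and 9 of 10 above the sham median. The log2 difference was 0.39 ± 0.13 (95% interval 0.13 to 0.65; edgeR adjusted p = 0.474), and 0.49 and 0.25 within the lower and higher numbers. Mean Dbp, a clock output transcript that swings over the day, was 71.3 ± 30.8 CPM in Western females against 128 ± 27.4 in female sham (SD, n = 10). Of 18 clock genes tested, 1 was called higher and 0 lower in Western females, so this lower Dbp was not called. With 2 principal components of the 18 clock genes as terms, the Irs1 value was 0.01.

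After gamma radiation Irs1 had 22.8 to 39.2 CPM in males (median 30.4) and 20.2 to 43.2 in females (median 30.99), against sham ranges of 20.5 to 31.6 (median 23.3) and 21.9 to 31.4 CPM. The differences were 0.35 ± 0.13 in males (adjusted p = 0.648) and 0.29 ± 0.13 in females (adjusted p = 0.442, and 0.27 without the library labelled female gamma replicate 7). With the clock terms the female value turned to -0.0094. As the mean of the sexes this was 0.32 ± 0.09 (95% interval 0.14 to 0.51; edgeR adjusted p = 0.267), and 0.11 with the clock terms. Mean Dbp was lower after gamma radiation too, at 73.5 ± 16.8 CPM in males and 75.7 ± 37.1 in females, against 96.4 ± 29.6 in male sham. In either sex 0 of the 18 clock genes were called after gamma radiation. Irs2, the adaptor that FOXO factors are known to induce, had group medians of 12.9, 17.5, 17.4 and 14.5 CPM in males and 11.997, 14.2, 11.7 and 15.4 in females (sham, Western, mixed, gamma). Its groups overlapped throughout, and no Irs2 value against sham reached an unadjusted p under 0.05.

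Pik3r1, the p85 subunit of PI3K, barely overlapped between Western and sham males. In male sham libraries it ran from 60.6 to 131 CPM (median 91.8), and in Western males from 96.8 to 161 (median 134). A single sham library, replicate 5 at 131 CPM, lay inside the Western range, and 6 of 10 Western libraries lay above it. The share of all genes with as little overlap was not counted, so this cannot be read as particular to Pik3r1. The log2 difference was 0.48 ± 0.14 (95% interval 0.20 to 0.77), with an edgeR adjusted p of 0.0896. Within the lower and higher numbers it was 0.57 and 0.39. It was 0.28 without the libraries over 10 CPM of Myl7, so among higher-numbered ones. The atrial sum ran from 6.75 to 637 CPM in male sham and from 6.99 to 1002 in Western males, with 1 of 5 atrial markers called lower. With a term for title numbers in each sex the value was 0.48 and Pik3r1 was called (adjusted p = 0.0461). The call also depended on single libraries, since the adjusted p was 0.0324 without male sham replicate 5 and 0.0491 without male Western replicate 6. In mixed field males Pik3r1 ran from 69.7 to 169 CPM (median 111), a difference of 0.37 ± 0.14 (adjusted p = 0.452). In females its medians were 111, 110.5, 113 and 121 CPM in sham, Western, mixed and gamma libraries, and no difference reached an unadjusted p under 0.05.

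Akt1 had negative values in all 3 female comparisons. Female sham libraries ran from 171 to 284 CPM (median 215), Western females from 157 to 266 (median 191), mixed field females from 130.1 to 233 (median 199) and gamma females from 158 to 232 (median 168). Of the gamma libraries 6 of 10 lay below the lowest sham library, while the rest lay within the sham range. The gamma difference was -0.31 ± 0.09 (95% interval -0.49 to -0.13; edgeR adjusted p = 0.347), with -0.43 and -0.21 within the lower and higher numbers and -0.35 without the library labelled female gamma replicate 7. The Western and mixed differences were -0.21 ± 0.09 (adjusted p = 0.603) and -0.19 ± 0.09 (adjusted p = 0.763). In males the Akt1 medians were 226, 212, 225 and 213 CPM, with no unadjusted p under 0.05. Akt2 had male medians of 198, 192, 210.0 and 196 CPM and female medians of 214, 204, 206 and 210.0, and none of its 6 values reached that level either.

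Foxo3, a FOXO factor known for autophagy and atrophy genes in muscle, gave the smallest unadjusted p of any member against sham within a sex. In male sham libraries it ran from 58.3 to 102 CPM (median 75.2). In Western males it ran from 91.9 to 119.5 CPM (median 105), and only sham replicate 5, at 102, reached into that range. For Foxo3 too, the share of all genes with as little overlap was not counted. The log2 difference was 0.48 ± 0.13 (95% interval 0.22 to 0.74), with an edgeR adjusted p of 0.0678, and 0.54 and 0.41 within the lower and higher numbers. In mixed field males Foxo3 ran from 57.3 to 157 CPM (median 106), with 7 of 10 libraries above the highest sham library and 1, replicate 5, below the lowest. That difference was 0.52 ± 0.13 (95% interval 0.26 to 0.78; adjusted p = 0.0879), and 0.53 and 0.51 within the lower and higher numbers.

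Both Foxo3 values sat close to the threshold. The Western value passed it without male sham replicate 5 (adjusted p = 0.0236), without male Western replicate 6 (0.0443) or without male mixed replicate 5 (0.0482), and the mixed field value passed without male mixed replicate 5 (log2 difference 0.60, adjusted p = 0.0155), all by edgeR. With a term for title numbers the Western value was 0.47 and was called (adjusted p = 0.0394), and the mixed field value was 0.52 (0.0514). With the clock terms the Western and mixed values were 0.24 and 0.28, and without the libraries over 10 CPM of Myl7 0.34 and 0.40. Dbp was at 124 ± 26.98 CPM in Western males and 118 ± 25.7 in mixed field males, against 96.4 ± 29.6 in male sham (SD, n = 10). Of the 18 clock genes 1 was called higher and 1 lower in Western males, and 0 higher and 1 lower in mixed field males. In gamma males Foxo3 had a median of 78.3 CPM, near that of sham. Female Foxo3 had medians of 108 CPM in sham, 91.4 in Western, 101 in mixed and 112 in gamma libraries. Foxo1, the FOXO factor best known for liver glucose output, had medians between 24.1 and 28.4 CPM in all 8 groups, and no value against sham reached an unadjusted p under 0.05.

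Whether a treatment effect differed between the sexes was tested directly. No member was called by edgeR for any of the 3 treatments, where 0.447% of all genes were called for the Western diet, 0.0315% for the mixed field and 0% for gamma radiation. At an unadjusted p under 0.05 the members numbered 2, 2 and 1, beside 9.24, 9 and 5.38% of all genes, and DESeq2 called Foxo3 for the Western diet and none for the others. The Western effect on Foxo3 was 0.67 ± 0.18 higher in males than in females (95% interval 0.30 to 1.03; adjusted p = 0.0757), from 0.48 in males and -0.19 in females. It was called with a term for title numbers (0.67, adjusted p = 0.0425). It also passed the threshold when any 1 of 6 libraries was left out: male sham replicate 5, male mixed replicate 5, female sham replicates 1, 3 or 9, or female Western replicate 5. The Western effect on Pik3r1 differed by 0.53 ± 0.20 (adjusted p = 0.299). For the mixed field the differences were 0.56 ± 0.18 for Foxo3 (adjusted p = 0.318) and 0.45 ± 0.20 for Pik3r1 (adjusted p = 0.512).

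As means of the sexes, no member was called for any treatment, as was the case for all 15879 genes (0% called). The unadjusted count was 4 for the Western diet, 1 for the mixed field and 3 for gamma radiation, beside 11.4, 5.7 and 10.9% of all genes, and DESeq2 called none of the 9. The Western values were 0.25 for Insr (adjusted p = 0.304), 0.22 for Igf1r (0.293), 0.22 for Irs1 (0.338) and 0.22 for Pik3r1 (0.385). Besides Irs1, gamma radiation gave 0.27 for Insr (0.336) and -0.15 for Akt1 (0.392).

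A ribosomal RNA measure moved with some of these genes among the lower-numbered male libraries. Rn18s-rs5 is a ribosomal RNA gene copy, whose counts should be few after poly-A selection. Its share of a library's counts was 0.161 to 0.536% in 13 of those 20 libraries (Western 5, mixed 4, gamma 3, sham 1) and 1.58 to 2.26% in the other 7 (sham 4, gamma 2, mixed 1). This division at 1% was chosen after the values were seen. Insr ran from 128 to 209 CPM in the 13 libraries of low share and from 72.2 to 109.5 in the 7 of high share. Pik3r1 ran from 101 to 169 against 69.7 to 96.3 CPM, and Foxo3 from 90.9 to 157 against 57.3 to 87.7. These 3 genes therefore showed no overlap between the sets. Igf1r (23.7 to 37.7 against 18.3 to 26.96 CPM) and Irs1 (22.7 to 39.2 against 14.02 to 28.3) overlapped. Akt1 went the other way, at 182 to 225.9 CPM under 1% against 225.0 to 258 over it. Medians were 211 against 213 CPM for Akt2, 24.6 against 26.7 for Foxo1 and 18.5 against 13.5 for Irs2, with overlap. The share of all genes that separate at this division was not counted. The lack of overlap therefore cannot be read as particular to Insr, Pik3r1 and Foxo3.

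Among lower-numbered males, 2 libraries at the edge of their own group showed the same direction of share and level. Male sham replicate 5 had a share of 0.293% and 164 CPM of Insr, 131 of Pik3r1 and 102 of Foxo3, each above sham replicates 1 to 4. Male mixed replicate 5 had a share of 1.63% and the lowest Insr (72.2 CPM), Pik3r1 (69.7) and Foxo3 (57.3) of its group. In lower-numbered females only Western replicate 1 and gamma replicate 1 (0.780%) lay under 1%, so the same division could not be compared there. Values of single libraries are given instead. Gamma replicate 2, with the highest share of 5.03%, had 190.0 CPM of Insr and 229 of Pik3r1, the highest Pik3r1 of its group. Sham replicate 3, at 1.13%, had 85.5 CPM of Insr. Western replicate 1, with the lowest share of 0.102%, had 177 CPM, and gamma replicate 5, at 1.41%, had 179.7. With the share as a term beside the title numbers, the male Western values were 0.42 for Foxo3 (edgeR adjusted p = 0.155) and 0.42 for Pik3r1. With a slope of its own in each sex and set of numbers, an alternative chosen after the data were seen, they were 0.32 and 0.31, that of Insr was 0.03 and the sex difference of the Western effect on Foxo3 was 0.21.

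Males and females were compared as the mean over the 4 conditions, where 23.3% of all genes were called. Of the 9 members 2 were called, close to that background. Irs1 was lower in males. It ran from 14.02 to 39.2 CPM (median 27.4) in 40 male libraries and from 20.2 to 48.4 (median 28.4) in 40 female ones, ranges that overlapped almost fully. The log2 difference of males minus females was -0.18 ± 0.07 (95% interval -0.31 to -0.05; edgeR adjusted p = 0.0377). Akt1 was higher in males, from 159 to 258 CPM (median 219) against 130.1 to 284 (median 193), also with overlap. Its difference was 0.13 ± 0.04 (95% interval 0.04 to 0.22; adjusted p = 0.0230). In sham alone mean Akt1 was not higher in males, at 215 CPM against 222 in females. It was 211 against 191 in Western, 218 against 195 in mixed field and 216 against 179 in gamma libraries. Mean Irs1 was 24.4 CPM in males against 26.3 in females in sham, and 25.4 against 34.4 in Western libraries. It was 26.4 against 28.8 in mixed field and 31.1 against 32.2 in gamma libraries.

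The Irs1 call was fragile. It was lost when any 1 of 26 of the 80 libraries was left out, with an adjusted p of up to 0.0804. These were, in males, sham replicate 8, Western replicates 1 and 7 to 10, mixed replicates 5, 6, 8 and 9 and gamma replicates 3, 4, 6 and 10, and in females, sham replicates 2, 4 and 9, Western replicates 3 and 5, mixed replicates 1, 3 and 5 and gamma replicates 2, 3, 4 and 7. It also rested on the lower numbers, with -0.29 there (adjusted p = 0.0134) and -0.04 in the higher ones (0.730). The Akt1 call held with each of the 80 libraries left out, and its value was 0.14 (adjusted p = 0.0316) in the lower and 0.13 (0.158) in the higher numbers. Without the libraries over 10 CPM of Myl7 neither gene was called. That fit kept all females but, of the lower-numbered males, only mixed replicates 1, 3 and 5. Atrial markers and title numbers therefore cannot be told apart in it. With the clock terms both calls were lost as well, at -0.08 for Irs1 (adjusted p = 0.347) and 0.07 for Akt1 (0.286), and Insr was called in their place (0.22, adjusted p = 0.00937). All 5 atrial markers were called higher in males, and their sum ran from 6.68 to 1899 CPM in males and from 2.84 to 27.4 in females. Myl7 was at 0 in 21 of the 80 libraries, Sln in 42 and Bmp10 in 2. Insr was called within the higher numbers alone, at 0.27 ± 0.05 (adjusted p = 1.83e-04) after -0.06 in the lower ones.

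Title number separated the members more often than treatment did, and the same was true of all genes. In males 29.8% of all genes were called between the higher and the lower numbers, and 2 of the 9 members (22.2%) were. Akt2 fell from a median of 212 CPM (150.05 to 255) to 184 (145 to 221), and 19 of 20 higher-numbered libraries lay below the lower-numbered median. The log2 difference was -0.22 ± 0.05 (edgeR adjusted p = 1.72e-04). Pik3r1 fell from 125 CPM (69.7 to 169) to 95.5 (60.6 to 142), by 0.27 ± 0.10 on the log2 scale (adjusted p = 0.0263). That call was lost without any 1 of male sham replicates 5 or 6, male mixed replicate 4 or male gamma replicate 5. With the Rn18s-rs5 share as a term neither was called, at -0.17 for Pik3r1 (adjusted p = 0.461) and -0.18 for Akt2 (0.0519). With a slope of its own in each sex and set of numbers both were called, at -0.25 (0.0117) and -0.22 (3.18e-05). The median share was 0.351% in lower-numbered and 1.65% in higher-numbered males. Markers of other cell types moved between the numbers too. In the higher numbers 3 of 5 atrial markers were called lower and 1 higher, 3 of 5 fibroblast, 2 of 4 tested smooth muscle and 2 of 2 tested adipocyte markers were called lower, and 2 of 5 endothelial markers higher. Their part in the result was not tested, and no fit could be made without the libraries over 10 CPM of Myl7.

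In females 24% of all genes were called between the numbers, and 3 of the 9 members were, all receptors or their substrate. Insr fell from a median of 149.8 CPM (85.5 to 190.0) to 110.5 (75.6 to 127), and all 20 higher-numbered libraries lay below the lower-numbered median, though the ranges overlapped. Its difference was -0.42 ± 0.08 (edgeR adjusted p = 7.1e-05). Irs1 fell from 32.6 CPM (21.9 to 48.4) to 25.7 (20.2 to 37.2), by 0.35 ± 0.08 on the log2 scale (adjusted p = 0.00133). Igf1r fell from 29.9 CPM (18.1 to 37.5) to 24.9 (20.7 to 32.2), by 0.20 ± 0.07 (adjusted p = 0.0419). These tests average the 4 conditions. In female sham alone the lower- and higher-numbered means were 120 and 106 CPM for Insr, 27.5 and 25.1 for Irs1 and 25.8 and 25.9 for Igf1r. In each other condition all 3 genes had lower means in the higher numbers, such as 161 and 109 CPM for Insr in Western females. Whether the shift differed by condition was not tested. The Igf1r call was lost when any 1 of 18 libraries was left out: female sham replicates 2, 4, 5, 8 or 9, Western replicates 2, 5, 8 or 9, mixed replicates 3, 4, 8 or 9, or gamma replicates 2, 3, 6, 8 or 9. The Rn18s-rs5 share ran from 0.400 to 0.776% in higher-numbered females. In lower-numbered ones it ran from 0.102 to 5.03%, with only Western replicate 1 and gamma replicate 1 under 1%. In the higher numbers 2 of 4 tested smooth muscle, 1 of 5 fibroblast and 1 of 5 endothelial markers were called higher. Called lower were 2 of 3 liver and 1 of 5 macrophage markers, and their part was not tested. The median of Dbp was 61.0 CPM in lower-numbered and 120.1 in higher-numbered females. With the clock terms the Irs1 and Igf1r calls were lost, at -0.15 (adjusted p = 0.213) and -0.12 (0.308). Insr was still called, and Pik3r1 (-0.27, adjusted p = 0.0304) and Foxo3 (-0.26, adjusted p = 0.0347) were called as well. The Igf1r call was also lost with no filter on low counts (adjusted p = 0.0513) and with the Rn18s-rs5 share (0.0794). All 5 calls in the 2 sexes were falls, a direction in which 12.8% of all genes were called in males and 12.1% in females.

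The difference between the sexes in this shift was tested as well, where 26.9% of all genes were called. Of the members 2 were called. The Insr shift, -0.42 in females, was 0.34 ± 0.12 less negative in males (edgeR adjusted p = 0.0209). The Akt2 shift, -0.22 in males, was 0.19 ± 0.07 more negative there than in females (adjusted p = 0.0255), and this call was lost without female mixed replicate 7 (adjusted p = 0.0509). As the mean of the sexes 30.7% of all genes and 4 of 9 members were called, with Insr at -0.25, Irs1 at -0.22, Pik3r1 at -0.24 and Akt2 at -0.13. Igf1r, at -0.12 (edgeR adjusted p = 0.0634), passed without the library labelled female gamma replicate 7 (0.0496).

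A list of 69 other genes of the pathway, chosen with earlier results of these data known, was followed in the same fit, and all 69 were tested. Against sham a single gene was called in a single comparison. Pik3ip1, which encodes a membrane protein that restrains PI3K, rose in Western males by 0.40 ± 0.09 on the log2 scale (edgeR adjusted p = 0.0261), with 0.40 and 0.41 within the lower and higher numbers. In Western females its difference was -0.22 ± 0.09 (adjusted p = 0.603), and the sex difference of the effect, 0.62 ± 0.13, was called too (adjusted p = 0.00749). That call was lost with the clock terms (0.16, adjusted p = 0.622), within the lower (0.152) or higher numbers (0.0656) alone, and without the libraries over 10 CPM of Myl7 (0.113). The male call was lost without male Western replicate 2 (adjusted p = 0.0562), male Western replicate 3 (0.0708) or male sham replicate 9 (0.0590), and with the clock terms (0.20, adjusted p = 0.351). It was also lost with no filter on low counts (0.0607), within the higher numbers alone (0.428) and without the libraries over 10 CPM of Myl7 (0.812). In the other 5 comparisons with sham none of the 69 was called by edgeR or by DESeq2, and 6 (Western), 2 (mixed) and 13 (gamma) genes in females and 10 (mixed) and 2 (gamma) in males reached an unadjusted p under 0.05. The shares of all genes at that level, in the same order, were 7.39, 6.47, 10.3, 8.17 and 5.43%. DESeq2 called 2 of the 69 in Western males, Pik3ip1 and Fbxo32, an atrophy ubiquitin ligase that FOXO factors induce.

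Between the sexes 26.1% of the list was called, 12 genes higher and 6 lower in males, close to the background of 23.3%. The called genes of smallest p were Grb10 (-0.25), an adaptor that inhibits the insulin receptor, Klf15 (-0.22), a metabolic transcription factor, Grb2 (0.18), which links receptors to RAS, Gabarapl1 (0.16), an autophagy protein, Tbc1d1 (0.30), a regulator of glucose transporter traffic, and Enpp1 (-0.29), an inhibitor of the insulin receptor. The values are log2 differences of males minus females.

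Between the title numbers 31.9% of the list was called in males, with 4 genes higher and 18 lower in the higher numbers, beside 29.8% of all genes. In males Slc2a4, the insulin-responsive glucose transporter GLUT4, fell by 0.23 on the log2 scale, Grb14, an inhibitor of the insulin receptor, by 0.25 and Foxo4, a further FOXO factor, by 0.25. Sesn3, a stress protein that restrains the mTOR pathway, fell by 0.45 and Trim63, a muscle ubiquitin ligase, by 0.19, while Sgk1, a kinase related to AKT, rose by 0.45. In females 36.2% was called, 12 higher and 13 lower, beside 24% of all genes. There Pdk4, which restrains glucose oxidation, fell by 0.84, Igf2r, a receptor that clears IGF2, by 0.48, Tsc1, an inhibitor of the mTOR pathway, by 0.41 and Pdpk1, which activates AKT, by 0.40. Igfbp7, which encodes a protein related to the IGF carriers, rose by 0.51 and Pik3ip1 by 0.27. Slc2a4 rose by 0.15 in females (edgeR adjusted p = 0.00412), against its fall in males.

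Members were then compared with each other across the 80 libraries, after the mean of each group and set of title numbers was subtracted from log2 CPM. The 36 pairs were tested by permutation (100000 permutations, two-sided, with Benjamini-Hochberg adjustment over the 36 pairs). Pik3r1 and Foxo3 had a Pearson r of 0.84 and a Spearman rho of 0.82, Insr and Pik3r1 an r of 0.82 (rho 0.79), and Insr and Foxo3 an r of 0.79 (rho 0.77). Each had a raw permutation p of 1e-05, the smallest that these permutations can give, and an adjusted p of 3.27e-05. They held within all 4 sets of 20 libraries. Pik3r1 with Foxo3 gave 0.92 and 0.57 in lower- and higher-numbered males and 0.85 and 0.92 in lower- and higher-numbered females. Insr with Pik3r1 gave 0.93, 0.54, 0.93 and 0.72 in the same order, and Insr with Foxo3 0.92, 0.49, 0.84 and 0.75. Without the 2 libraries farthest from the median they were 0.82, 0.80 and 0.76.

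**Figure D2:**
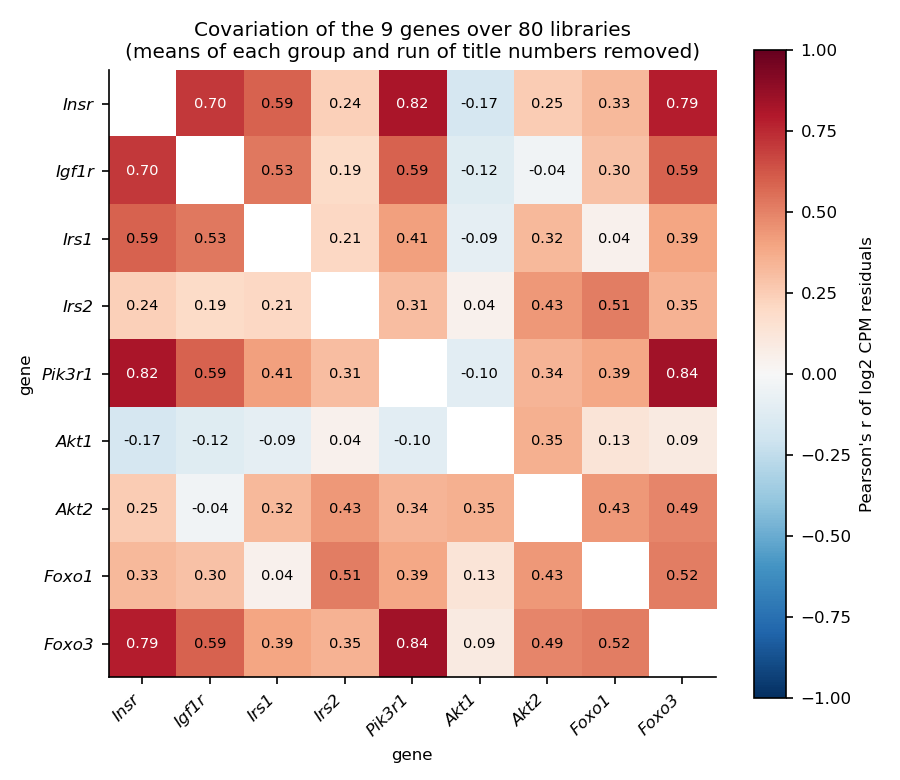
Pearson correlations of the 36 pairs of the 9 genes over 80 libraries, computed on log2 CPM after the mean of each group and set of title numbers was subtracted. Insr, Pik3r1 and Foxo3 form the block of highest values, from 0.79 to 0.84, and Insr with Akt1 is at -0.17.

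Other pairs were weaker or less even. Insr and Igf1r, the 2 receptors, had an r of 0.70 (rho 0.64, adjusted permutation p = 3.27e-05), between 0.57 and 0.87 within the 4 sets. Insr and Irs1 had an r of 0.59 overall but 0.42 in higher-numbered males and -0.08 in higher-numbered females, so that relation did not hold in every set. Irs1 and Pik3r1 gave 0.88 and 0.56 in the lower-numbered sets of males and females and 0.07 and -0.28 in the higher-numbered ones. Irs2 and Foxo1 had an r of 0.51 (rho 0.53; adjusted permutation p = 3.27e-05), from 0.40 to 0.70 within the sets. Akt1 stood apart from Insr, with an r of -0.17 and values from -0.53 to 0.39 within the sets.

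The genes most like each member were sought among the 9977 genes whose mean reached 5 CPM, on the same values over 80 libraries, as a description. All libraries share the depth and preparation that such correlations include. The closest to Insr were Aff4 (r = 0.89), Tead1 (0.88) and Ankrd17 (0.88). Those close to Foxo3 included Kif13a (0.87) and Aff1 (0.86), and those close to Pik3r1 included Ryr2 (0.89) and Ppp1r3a (0.87). These coefficients exceeded those between the 3 members. Ryr2 encodes the calcium release channel of heart muscle, and Ppp1r3a acts in glycogen turnover.

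For Igf1r the closest genes were Ppfibp1 (0.76), Kmt2a (0.74) and Golgb1 (0.73), for Irs1 Chid1 (0.69), Cp (0.65) and Clic5 (0.60), and for Irs2 Fosl2 (0.80), Adamts1 (0.63) and Nr4a1 (0.61). Fosl2 and Nr4a1 are transcription factors known as early response genes. For Akt1 they were Bcam (0.71), Trim55 (0.70) and Cish (0.69), for Akt2 Vapb (0.78), Slc2a4 (0.77) and St6galnac6 (0.77), and for Foxo1 Adam9 (0.79), Herpud2 (0.77) and Tor1aip1 (0.76). Slc2a4, the closest named metabolic gene to Akt2, is the transporter whose traffic AKT2 is known to control.

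Clock genes were compared with the members in the same way, with 18 relations for Dbp and Bmal1. Dbp was negatively related to Igf1r (r = -0.43, rho = -0.41, adjusted permutation p for r = 0.00162), with -0.58, -0.50, -0.39 and -0.39 within the 4 sets. For Irs1 r was -0.41 (adjusted permutation p = 0.00225), with -0.51, -0.37, -0.51 and -0.28 within the sets. For Insr r was -0.35 (adjusted permutation p = 0.0104), but it ran from -0.75 in higher-numbered males to -0.07 in higher-numbered females. For Pik3r1 r was -0.32 (adjusted permutation p = 0.0206) and had the other sign, 0.25, in higher-numbered females. For Bmal1, a core clock factor, the largest r were 0.30 with Irs1 (rho 0.29, adjusted permutation p for r = 0.0221), from 0.21 to 0.40 within the sets, and -0.28 with Akt1 (rho -0.29, adjusted permutation p = 0.0339), from -0.54 to 0.07. With Insr and Pik3r1 it had an r of 0.09 and -0.06, and the other 5 had adjusted permutation p-values for r from 0.0939 to 0.994. By rho, Akt2 (-0.31, adjusted permutation p = 0.0209) and Foxo3 (-0.29, 0.0237) were under 0.05. Sets differed in sign. In higher-numbered females r was -0.53 for Insr, -0.69 for Pik3r1 and -0.82 for Foxo3. It was 0.62 for Insr in higher-numbered males, and 0.40 for Pik3r1 and 0.47 for Foxo3 in lower-numbered males.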

How the data were processed

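The 80 left ventricle libraries were made from poly-A selected RNA and read in pairs on a NovaSeq-6000, per the labels' protocols. The tools named are FastQC 0.11.9 and STAR 2.7.8a, with the GRCm39 build, per the submitters' processing notes. How reads were counted, with which annotation and whether by strand, is not given in the sources used here. The authors deposited raw counts, which are whole numbers for each of 56941 Ensembl genes, of which 56323 matched GENCODE vM39 for symbols and coordinates. Groups were taken from the labels.

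edgeR 4.0.16 in R 4.3.3 was used with TMM scaling, after filterByExpr left 15879 genes that held at least 99.8% of each library's counts. Treatment and sex were tested in 1 quasi-likelihood fit with a coefficient per group, and title numbers in a fit with a coefficient per group and set of numbers. Genes were called at a Benjamini-Hochberg adjusted p under 0.05 over all genes tested. SE is the log2 change divided by the square root of F, CPM uses TMM-scaled library sizes, and the coefficient of variation of the common dispersion was 20.4%. The scripts were tested on simulated counts. Alternatives were DESeq2 1.42.0, no filter, each set of title numbers alone, a term for title numbers, clock terms, the Rn18s-rs5 share, leaving out libraries over 10 CPM of Myl7, a replicate block, and each library left out.

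The members and lists were chosen with earlier results of these data known. By rule, the text names all 9 members, in each comparison up to 6 called pathway genes of smallest p, and 3 like genes per member. Fbxo32 was named after its value was seen. Some like genes and a promoter are not reported here, and no protein sequences were printed.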

Additional observations from a re-analysis of the deposited data

Results flagged for a closer look

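In 5 of 72 groups of 10 libraries (9 genes, 8 groups) the highest library stood apart from the rest by Dixon's criterion, where chance gives about 5%. Irs2 had 42.4 CPM in male sham replicate 8, against 8.17 to 14.2 in the other 9, and 37.7 CPM in female Western replicate 4, against 7.24 to 16.7. Akt1 had 266 CPM in the same female Western library, against 157 to 212. Pik3r1 had 131 CPM in male sham replicate 5, against 60.6 to 96.3, and 229 CPM in female gamma replicate 2, against 87.6 to 159. The first of these Pik3r1 libraries is the one whose removal brought Foxo3, Pik3r1 and Igf1r past the threshold in Western males, with edgeR adjusted p-values of 0.0236, 0.0324 and 0.0391.

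The shift between title numbers differed between the sexes by a direct test for 2 members. The male minus female difference of that shift was 0.34 on the log2 scale for Insr and -0.19 for Akt2.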

How the results depend on the processing

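The number of members called moved by over 1.5 times as follows. For the Western diet in males DESeq2 called 1 member (Foxo3) and a term for title numbers 2 (Pik3r1, Foxo3), against 0; for the mixed field in males DESeq2 called 1 (Foxo3) against 0; and for the sex difference of the Western effect each of these settings called 1 (Foxo3) against 0. For males minus females 2 members were called, but 1 (Akt1) with no filter on low counts, 1 (Insr, not a gene of the reported pair) in title numbers 21 to 40 alone and also with clock terms, and 0 without the libraries over 10 CPM of Myl7. The male shift between title numbers called 2 members, 4 with clock terms and 0 with the Rn18s-rs5 share. Its sex difference called 2 members, 1 (Insr) with no filter, 0 with clock terms and 1 (Insr) with the Rn18s-rs5 share. The female shift called 3 members with clock terms as well, but Pik3r1 and Foxo3 in place of Igf1r and Irs1. The cause of these changes was not tested. Clock terms turned the sign of Irs1 in gamma females (-0.0094) and of Irs1 in the sex difference of the shift (-0.025). With each library left out in turn the counts ran from 0 to 3 for Western males, 0 to 1 for mixed field males and the sex difference of the Western effect, 1 to 2 for males minus females, the male shift and its sex difference, 2 to 3 for the female shift and 4 to 6 for the mean shift, and stayed at 0 elsewhere. Of 44 member values with an unadjusted p under 0.05, 2 turned sign under any alternative. Same-numbered male and female libraries were not taken as paired, since the median correlation of their deviations over 40 pairs was -0.005 and only 6 exceeded 0.1. With the replicate block, males minus females gave -0.18 for Irs1 (edgeR adjusted p = 0.0367) and 0.14 for Akt1 (0.0242), both still called, and 0.70 for the sex difference of the Western effect on Foxo3 (0.0715). The title number fits without the Myl7 libraries could not be made in males. Depth limits Irs2 most, with as few as 93 counts in a library.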
